A study of Mus musculus with 12 samples.

Results

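The nonsense-mediated decay factors described here are the mRNAs of 9 mouse genes, Upf1, Upf2, Upf3a, Upf3b, Smg1, Smg5, Smg6, Smg8 and Smg9, taken by gene symbol from the count tables of ribosome footprints and of poly(A) RNA. They were 9 of the 22034 genes in the footprint table and 9 of the 49997 in the RNA table, and their rule uses names alone, although the set was drawn up with earlier results of these data known. All 9 passed the filter on low counts in the footprint libraries. In the RNA libraries 8 passed, and Smg8 was below the filter.

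Nonsense-mediated decay removes mRNAs on which a ribosome terminates at a stop codon in an unfavourable place, for example upstream of an exon junction complex. The helicase UPF1 associates with terminating ribosomes and their release factors eRF1 and eRF3, is bridged to exon junction complexes by UPF2 and UPF3 proteins, and is phosphorylated by the kinase SMG1. Phosphorylated UPF1 recruits the endonuclease SMG6 and the adaptor SMG5, which start degradation of the mRNA. Several of these factors are known to be encoded by mRNAs that are themselves substrates of the pathway, and in stem cells the pathway is known to affect the exit from pluripotency.

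ES-E14TG2a mouse embryonic stem cells, grown with 2i inhibitors and LIF, had a dTAG degron on eRF1, the factor that reads stop codons. Added dTAG-13 links this tag to a ubiquitin ligase, so that the tagged protein is degraded. Footprints, the mRNA fragments protected by ribosomes, were sequenced in Gcn2 knockout cells after 1 h in 500 nM dTAG-13, in untreated Gcn2 knockout cells, in wild-type cells after the same treatment and in untreated wild-type cells. Poly(A) RNA came from treated and from untreated wild-type cells, so that 6 groups of 2 biological replicates, A and B, made up 12 libraries. GCN2 phosphorylates the initiation factor eIF2 under amino acid shortage or ribosome stalling, which lowers initiation in general. Every group carried the tagged eRF1, wild type here meaning intact Gcn2, and the labels name neither a vehicle control nor treated cells without the tag. Effects of the compound and of eRF1 loss therefore cannot be told apart, and the labels do not say whether the knockout is 1 clone.

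In the knockout, footprints of the targeted gene Eif2ak4, which encodes GCN2, were at 3.10 and 5.36 CPM (counts scaled per library) in treated and 2.46 and 2.33 CPM in untreated cells. In wild type they were at 34.0 and 33.2 CPM in treated and 27.7 and 29.4 CPM in untreated cells, so all 4 knockout libraries were below all 4 wild-type ones. The footprint libraries held 7874804 to 19691716 counts, the smallest being treated wild-type replicate A, and the RNA libraries held 17462458 to 24256097. The summed level of 10 stem cell marker genes was 9583 to 10430 CPM in footprints and 5542 to 5676 CPM in RNA, and all 10 were detected in every library. Among them Pou5f1 was low in RNA, with group means of 5.877 CPM in treated and 6.299 CPM in untreated wild-type cells. Its footprint group means were 1068 to 1376 CPM, and the cause of its low RNA level was not tested. The summed level of 8 fibroblast markers was 7.59 to 14.4 CPM in footprints, with Postn at 0 in all 8 libraries and Dcn in 6. That of 7 primitive endoderm markers was 95.5 to 148 CPM in footprints, with Sox7 at 0 in 3 libraries. Lama1 made up most of this sum, with footprint group means of 91.1 to 132 CPM. Dab2, the next highest of this list, had group means of 3.05 to 5.36 CPM. In this list Gata4 fell in treated knockout cells (log2 change −1.17, edgeR adjusted p = 0.0472) and Lama1 rose in treated wild-type cells (0.53, adjusted p = 0.0407). The part of these markers in the results was not tested, and in bulk libraries fewer cells of a type and less RNA per cell cannot be told apart. In treated against untreated cells, Etf1, the gene of eRF1, had log2 changes in footprints of 0.26 in the knockout (adjusted p = 0.201) and 0.15 in wild type (adjusted p = 0.552), which says nothing about the protein that dTAG-13 removes. A change common to all mRNAs was not measured, since counts were compared as shares of each library.

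Treatment with dTAG-13 was followed by a change that passed the test in 1 of the 9 factors, and in 1 genotype. Upf1 footprints rose 1.37-fold in treated wild-type cells, and in the knockout none of the 9 passed. The test was the quasi-likelihood test of edgeR over all genes of a table, and a gene was called where its p-value, adjusted over all genes by the Benjamini-Hochberg method, was under 0.05. In the knockout, 0 of 9 factors were called by edgeR, while 8.88% of the 12267 genes tested were. An unadjusted p under 0.05 was found for 0 of 9, against 24.5% of all genes, and DESeq2 called 0 of 9, against 12.7% of the genes to which it gave an adjusted p. In wild-type cells 1 of 9 was called by edgeR, while 4.88% of all genes were. An unadjusted p under 0.05 was found for 3 of 9, against 19.0% of all genes, and DESeq2 called 1 of 9, against 9.52%. The median log2 change of the 9 was −0.04 in the knockout, against 0.04 over all genes. In wild-type cells it was 0.18, against −0.01 over all genes, whose 10th and 90th percentiles were −0.43 and 0.45.

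Counted by CPM ranges that did not overlap, 4 of the 9 factors were higher and 2 lower in both treated knockout libraries than in both untreated ones, while 32.5% of all genes were higher and 27.0% lower. In wild-type cells 5 of 9 were higher and 1 lower, while 22.3% of all genes were higher and 22.8% lower. Upf1, Upf3a, Smg6 and Smg8 had separate ranges in both genotypes, in opposite directions for Upf1 and Upf3a and both higher for Smg6 and Smg8. The share of all genes with separate ranges in both genotypes is not given here, so these 4 cannot be set against it.

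**Figure D1:**
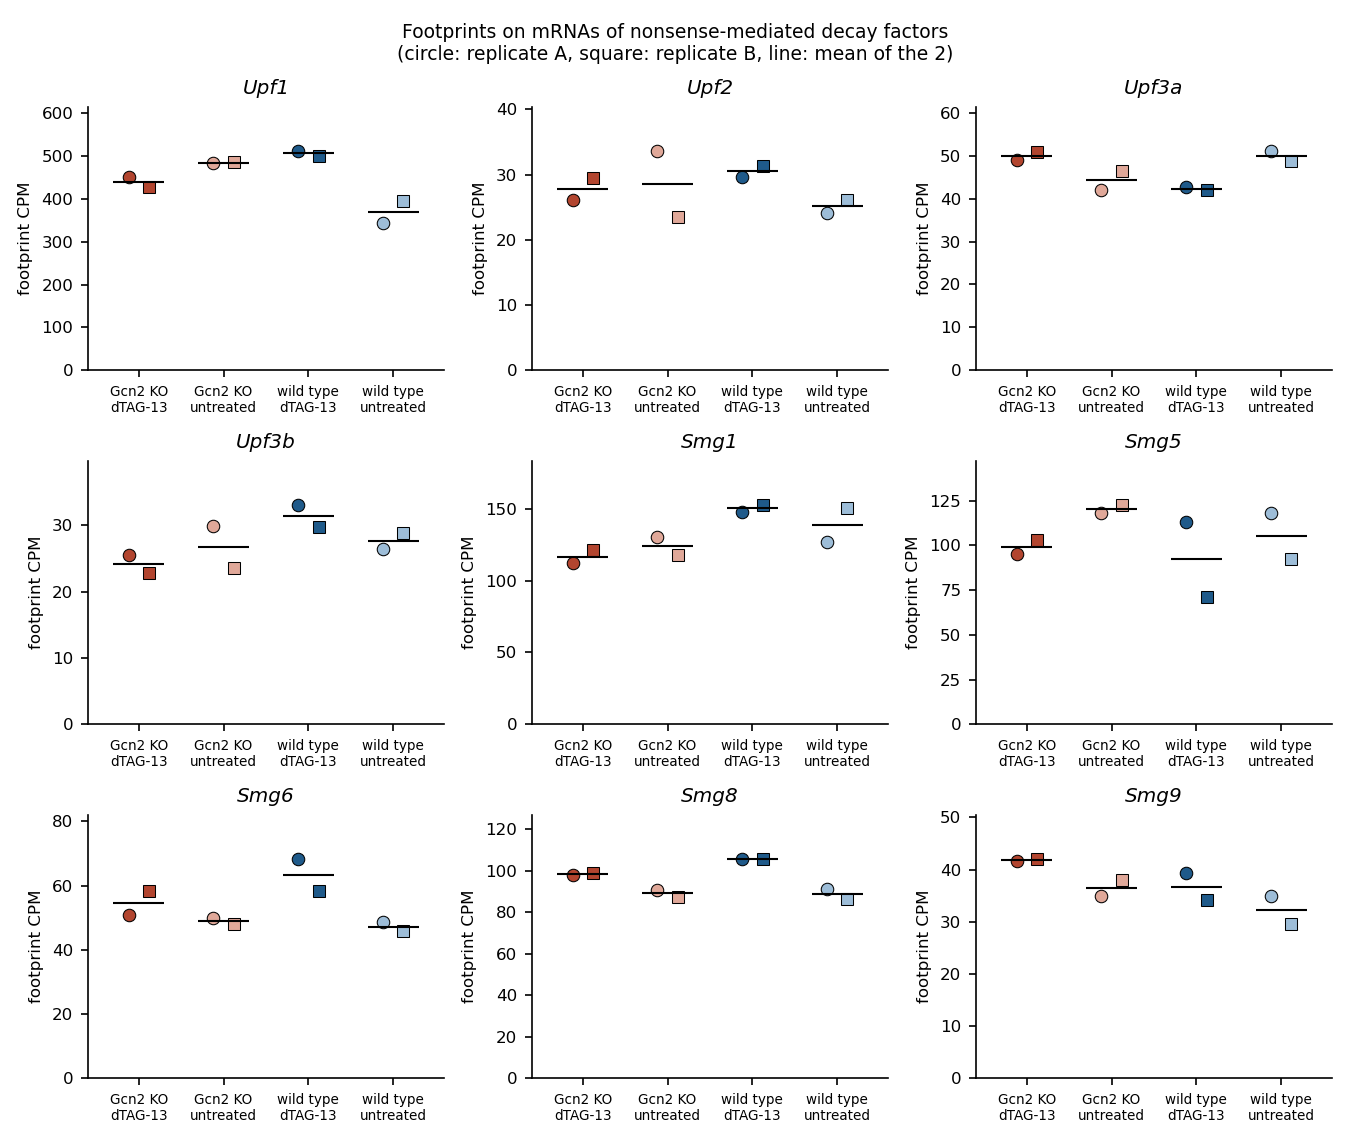
Footprint CPM of each decay factor in the 8 footprint libraries (vertical axis from 0, one panel per gene); circles are replicate A, squares replicate B and lines the mean of the 2. For Upf1 the untreated wild-type libraries, at 344 and 395 CPM, are the lowest of the 8, and for Smg5 the treated wild-type replicates lie far apart, at 113 and 71.3 CPM.

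Upf1 encodes the RNA helicase on which the pathway turns. In mm10 it lies on the minus strand of chromosome 8 from 70331493 to 70353423, and its annotated span shares 100 bases with Gdf1 and Cers1 on the other strand. Its footprint level was 451 (A) and 428 (B) CPM in treated knockout cells, against 483 (A) and 485 (B) CPM in untreated knockout cells. The treated knockout libraries were both lower, with a log2 change of −0.14 (SE 0.113, 95% interval −0.38 to 0.11, adjusted p = 0.492). In treated wild-type cells the level was 512 (A) and 500 (B) CPM, against 344 (A) and 395 (B) CPM in untreated wild-type cells. Both treated wild-type libraries were higher than both untreated ones, with means of 506 ± 8.48 and 370 ± 36.5 CPM (SD, n = 2 each). The log2 change in wild-type cells was 0.45 (SE 0.114, 95% interval 0.21 to 0.70, edgeR adjusted p = 0.0388).

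This call was kept in 1 of 8 fits without a single footprint library. It was kept in the fit without untreated wild-type replicate B (log2 change 0.56, adjusted p = 0.0309) and lost in the 7 fits that left out any other library, of either genotype, where the log2 change was 0.36 to 0.47 and the adjusted p 0.0504 to 0.222. The main fit takes its spread from both genotypes. With the 4 wild-type libraries fitted alone, and the spread from these only, the log2 change was 0.46 and the adjusted p 0.177.

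Upf2 and the 2 Upf3 genes encode the proteins that connect UPF1 to exon junction complexes. Upf2 (chromosome 2, 5951447 to 6056703) had 26.1 and 29.4 CPM in treated knockout cells, against 33.6 and 23.5 CPM in untreated knockout cells. Its ranges overlapped in the knockout (log2 change −0.04, SE 0.170). In treated wild-type cells it had 29.6 and 31.4 CPM, against 24.1 and 26.1 CPM in untreated wild-type cells, ranges that did not overlap, with a log2 change of 0.28 that missed the threshold (SE 0.171, 95% interval −0.09 to 0.65, adjusted p = 0.409).

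Upf3a (chromosome 8, 13785055 to 13798723), the weaker activator of the paralogue pair and in some reports an antagonist, was higher after treatment in the knockout and lower in wild type, the reverse of Upf1, without passing the test. It had 49.0 and 50.8 CPM in treated knockout cells, against 42.0 and 46.5 CPM in untreated knockout cells, both treated libraries being higher. It had 42.7 and 42.0 CPM in treated wild-type cells, against 51.1 and 48.8 CPM in untreated wild-type cells, both treated libraries being lower. Neither log2 change passed, at 0.18 in the knockout (SE 0.121, adjusted p = 0.404) and −0.24 in wild type (SE 0.122, adjusted p = 0.313). Upf3b (chromosome X, 37091678 to 37110471), the paralogue that joins exon junction complexes to the UPF proteins, had 25.5 and 22.7 CPM in treated knockout cells, against 29.9 and 23.6 CPM in untreated knockout cells, with overlapping ranges. In wild-type cells Upf3b had 33.0 and 29.7 CPM after treatment, against 26.4 and 28.7 CPM without it, and its ranges did not overlap. Its log2 changes were −0.15 in the knockout and 0.18 in wild type, with adjusted p of 0.601 and 0.580.

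The SMG1 complex consists of the kinase and its regulators SMG8 and SMG9. Smg1 (chromosome 7, 118131308 to 118244437) had 112 and 121 CPM in treated knockout cells, against 130 and 118 CPM in untreated knockout cells, and 148 and 153 CPM in treated wild-type cells, against 127 and 150 CPM in untreated wild-type cells. Its ranges overlapped in both genotypes, and its log2 changes were −0.09 in the knockout (adjusted p = 0.707) and 0.12 in wild type (adjusted p = 0.666).

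Smg8 (chromosome 11, 87077732 to 87086777) is, with SMG9, known to restrain the activity of the kinase. It had 98.0 and 99.0 CPM in treated knockout cells, against 90.6 and 87.5 CPM in untreated knockout cells, and 106 and 105 CPM in treated wild-type cells, against 91.3 and 86.6 CPM in untreated wild-type cells. Both treated libraries were higher in each genotype, by a log2 change of 0.15 in the knockout (SE 0.108, adjusted p = 0.445) and 0.25 in wild type (SE 0.109, 95% interval 0.01 to 0.48, adjusted p = 0.236). Smg9 (chromosome 7, 24397517 to 24422777) had 41.6 and 42.0 CPM in treated knockout cells, against 34.9 and 37.9 CPM in untreated knockout cells, which did not overlap. In wild-type cells Smg9 had 39.3 and 34.1 CPM after treatment, against 34.9 and 29.6 CPM without it, and its ranges overlapped. Neither log2 change passed, at 0.20 in the knockout (adjusted p = 0.396) and 0.18 in wild type (adjusted p = 0.538).

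The effectors of decay are the endonuclease SMG6 and the phospho-UPF1 adaptor SMG5. Smg6 (chromosome 11, 74925854 to 75164448) shares up to 3072 bases of its annotated span with Srr and Hic1, which lie on the other strand, and no source used here says whether the counting used strand. It had 50.7 and 58.5 CPM in treated knockout cells, against 49.8 and 48.0 CPM in untreated knockout cells, and both treated libraries were higher (log2 change 0.16, SE 0.130, adjusted p = 0.496). It had 68.3 and 58.4 CPM in treated wild-type cells, against 48.6 and 45.8 CPM in untreated wild-type cells, again with both treated libraries higher. This wild-type log2 change, 0.42 (SE 0.131, 95% interval 0.14 to 0.70), was close to that of Upf1 in size but missed the threshold, with an adjusted p of 0.0891.

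Smg5 (chromosome 3, 88336259 to 88362338) had the widest gap of the 9 between treated wild-type replicates. It had 95.03 and 103 CPM in treated knockout cells, against 118 and 123 CPM in untreated knockout cells, both treated libraries being lower (log2 change −0.28, SE 0.187, adjusted p = 0.386). In wild-type cells it had 113 (A) and 71.3 (B) CPM after treatment, against 118 (A) and 92.3 (B) CPM without it. The wild-type ranges overlapped, replicate B being below replicate A in both groups, and the log2 change was −0.20 (SE 0.188, adjusted p = 0.634). It was −0.56 without treated wild-type replicate A and 0.11 without treated wild-type replicate B.

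**Figure D2:**
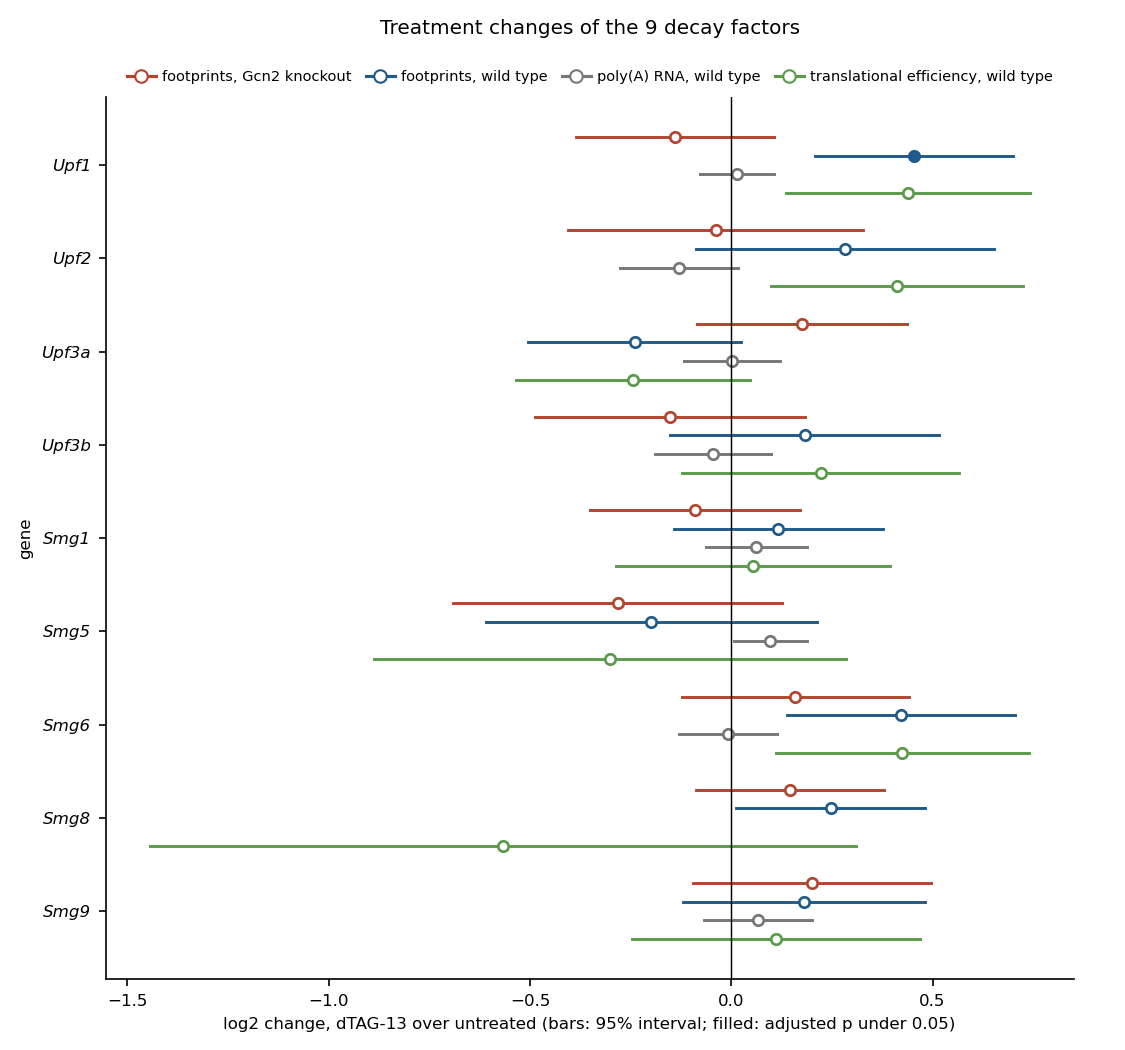
Log2 change of each decay factor after dTAG-13 over untreated (horizontal axis) in knockout footprints, wild-type footprints, wild-type poly(A) RNA and wild-type translational efficiency; bars are 95% intervals and filled points passed an adjusted p of 0.05. Upf1 in wild-type footprints, at 0.45, is the 1 filled point, the RNA values lie between −0.13 and 0.10, and Smg8 has no RNA value.

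The fit also gave the difference between the genotypes in the response, the knockout's log2 change minus that of wild type. None of the 9 factors passed this test in edgeR, where 0.0489% of all genes did, and 2 had an unadjusted p under 0.05, against 1229 of all 12267 genes. These were Upf1, with a difference of −0.59 (SE 0.161, 95% interval −0.94 to −0.25, unadjusted p = 0.00271, adjusted p = 0.244), and Upf3a, with a difference of 0.41 (SE 0.172, 95% interval 0.04 to 0.79, adjusted p = 0.435). DESeq2 called 1 of the 9, Upf1, with a difference of −0.62 and an adjusted p of 0.0379, against 1.77% of the genes to which it gave one. For both genes, as given above without the share of all genes, the treated libraries lay beyond the untreated ones in both genotypes, in opposite directions. The other 7 differences lay between −0.33 (Upf3b) and 0.02 (Smg9), and 7 of all 9 were below 0, where the median over all genes was 0.0055. The 9 values come from the same 8 libraries, and those of Smg5 and Smg9 changed sign in fits without a single library.

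Without treatment, no factor passed the same test between knockout and wild-type cells. None of the 9 was called by edgeR, where 0.00815% of all genes, which is Eif2ak4 alone, were called, or by DESeq2, where 0.280% were. An unadjusted p under 0.05 was found for 1 of 9, against 5.98% of all genes. The factor with an unadjusted p under 0.05 was Upf1, at 483 and 485 CPM in untreated knockout cells, against 344 and 395 CPM in untreated wild-type cells (log2 difference 0.39, SE 0.113, 95% interval 0.14 to 0.64, unadjusted p = 0.00443, adjusted p = 0.648). The same untreated wild-type libraries enter this difference and the wild-type response of Upf1, so the values are not independent. The CPM ranges were higher in the knockout for 2 of the 9, Upf1 and Smg5, and lower for 1, Upf3a, against 15.6% and 16.1% of all genes. The log2 differences of the other 8 factors lay between −0.18 (Upf3a) and 0.20 (Smg5), and that of Smg8 was 0.00 (SE 0.108).

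In poly(A) RNA, no factor passed the test between treated and untreated wild-type cells. Upf1 RNA was at 483 and 476 CPM in treated cells, against 452 and 498 CPM in untreated cells, ranges that overlapped, with a log2 change of 0.01 (SE 0.046, 95% interval −0.08 to 0.11). Smg6 RNA was at 75.03 and 78.6 CPM in treated cells, against 78.3 and 75.9 CPM in untreated cells (log2 change −0.01, SE 0.061). Of the 8 factors tested, 0 were called by edgeR or DESeq2, and the log2 changes ran from −0.13 (Upf2) to 0.10 (Smg5), while edgeR called 0.163% of the 15955 genes tested and DESeq2 0.0501%. The 1 factor with an unadjusted p under 0.05, against 5.13% of all genes, was Smg5, at 381 and 382 CPM in treated cells, against 355 and 358 CPM in untreated cells (SE 0.045, adjusted p = 0.939). RNA ranges were separate and higher in treated cells for Smg5 and Smg9 and lower for Upf2, or 2 and 1 of 8, against 16.6% and 16.9% of all genes. Smg1 RNA, at 303 and 296 CPM in treated and 262 and 312 CPM in untreated cells, depended on which untreated library was kept, with a log2 change of −0.06 without untreated replicate A and 0.19 without untreated replicate B (adjusted p = 0.000542).

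Translational efficiency, the change of footprints beyond that of RNA, was tested as the interaction of assay and treatment in a joint fit of the wild-type libraries. None of the 9 factors passed in edgeR, where 1.47% of the 12887 genes in this fit did, or in DESeq2, where 5.34% did. An unadjusted p under 0.05 was found for 3 of 9, against 14.2% of all genes. The 3 were Upf1 (log2 change 0.44, SE 0.136, adjusted p = 0.151), Smg6 (0.42, SE 0.142, adjusted p = 0.182) and Upf2 (0.41, SE 0.141, adjusted p = 0.195). They are the factors with the largest wild-type footprint changes, which enter the same fit. Upf1 was called without untreated wild-type footprint replicate B (0.54, adjusted p = 0.0323). The negative values were those of Smg8 (−0.57, SE 0.396), Smg5 (−0.30, SE 0.261) and Upf3a (−0.24, SE 0.131), and that of Smg8 rested on few RNA counts. In fits without a single library the value of Smg8 was −0.93 to 0.11, above 0 without treated RNA replicate A, and that of Smg5 was −0.66 to 0.01, above 0 without treated footprint replicate B.

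Smg8 had almost no counts in poly(A) RNA. Its RNA counts were 20 (A) and 7 (B) in treated wild-type cells, against 8 (A) and 9 (B) in untreated wild-type cells, while its footprint counts were 796 (A) and 1476 (B) in treated wild-type cells, against 1828 (A) and 1551 (B) in untreated wild-type cells. All 4 RNA libraries were at or under 0.84 CPM and all 8 footprint libraries at or above 86.6 CPM. In untreated wild-type cells footprint CPM was 215 times RNA CPM, the 62nd highest ratio of the 7686 genes with at least 10 footprint CPM. Of those genes, 83 had no more RNA counts in all 4 libraries than the 44 of Smg8. No protein-coding gene overlaps Smg8 in the annotation of this build, and the cause of the low RNA count was not tested.

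For the other 8 factors the ratio of footprint CPM to RNA CPM in untreated wild-type cells could be set against 7563 genes with at least 1 RNA CPM and 10 footprint CPM, as a description. Both CPM here are scaled over the genes of the joint fit, and coding length was not used. Upf1 had a ratio of 0.694, at percentile 47.4. The ratio was 0.548 for Smg9, 0.546 for Smg6, 0.531 for Upf2, 0.518 for Upf3b and 0.500 for Upf3a, between percentiles 28.4 and 33.2. These 5 lay close together, and every one of the 8 was below the middle of the distribution. Smg1 had 0.431, and Smg5 had the lowest ratio, 0.263, at percentile 7.52, with a range over library pairs of 0.230 to 0.296.

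**Figure D3:**
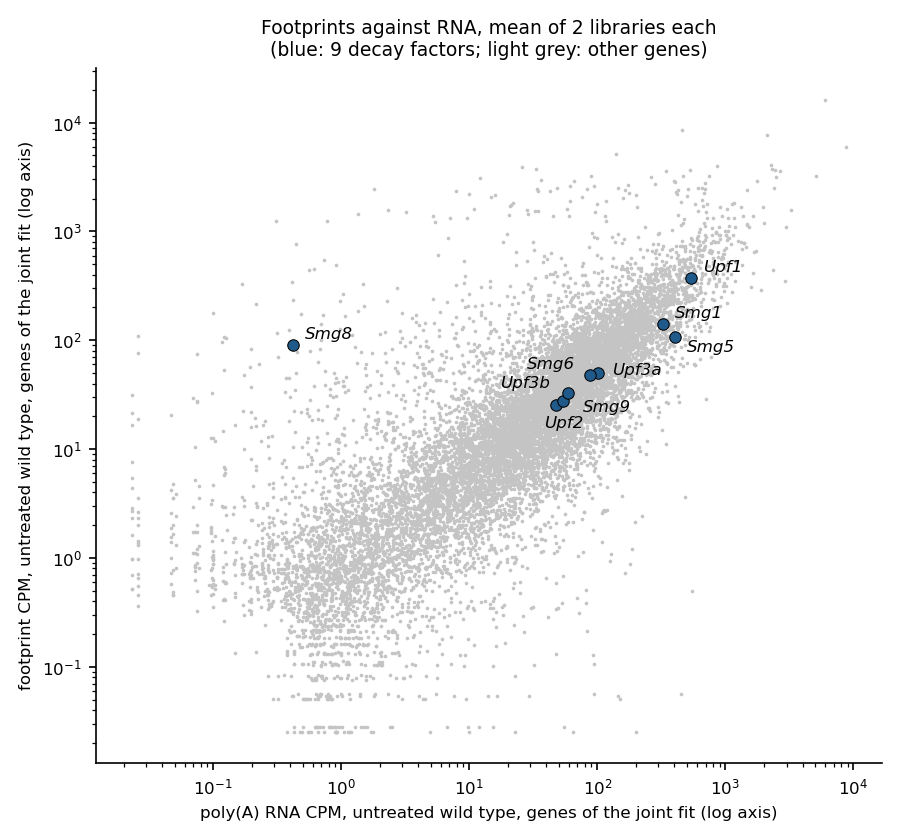
Footprint CPM against poly(A) RNA CPM in untreated wild-type cells, both on log axes and each the mean of 2 libraries, for all genes of the joint fit above 0 (light grey) and the 9 decay factors (blue). Smg8 stands apart with 89.8 footprint CPM and 0.418 RNA CPM, and Smg5 lies lowest of the others relative to its RNA.

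The genes whose footprint levels were most like those of Upf1 over the 8 footprint libraries, out of 6535 genes whose log2 CPM averaged 4 or more, were 3110040N11Rik (Pearson r of log2 CPM 0.968), Heatr6 (0.949) and Gtf2f1 (0.928), the last encoding a subunit of the general transcription factor TFIIF. These coefficients describe 8 libraries that share 4 groups. None of the 3 was called in either genotype, their log2 changes being −0.14, −0.02 and −0.01 in the knockout and 0.30, 0.25 and 0.19 in wild type.

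The other genes of the pathway were counted in lists by role, as called by edgeR, which called 8.88% of all genes in knockout and 4.88% in wild-type footprints. Of 8 other factors of nonsense-mediated decay, in the knockout 1 rose and 0 fell. The riser was Pnrc2 (log2 change 2.42, adjusted p = 0.000395), which encodes a cofactor linking UPF1 to decapping. In wild-type cells 3 rose and 0 fell. The risers were Pnrc2 (1.42, adjusted p = 0.0123), Nbas (0.69, adjusted p = 0.0233), whose product acts in decay of mRNAs translated at the endoplasmic reticulum, and Gnl2 (0.66, adjusted p = 0.0123), which encodes a nucleolar GTPase linked to the pathway through work in the nematode Caenorhabditis elegans. In translational efficiency, Gnl2 was the 1 gene of this list called by edgeR (0.66, adjusted p = 0.0315). The median log2 change of this list in footprints was 0.08 in the knockout, against 0.04 over all genes, and 0.10 in wild type, against −0.01 over all genes. Of the exon junction complex genes, 8 were tested and 0 were called by edgeR in either genotype, with an unadjusted p under 0.05 for 3 in the knockout and 4 in wild type, against 24.5% and 19.0% of all genes. DESeq2 called 1 of them in the knockout, Acin1 (log2 change −0.42, adjusted p = 0.0334), and 0 in wild type.

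Among 17 genes of decapping and mRNA decay, in the knockout 2 rose and 2 fell. The risers were the 5′ exonuclease genes Xrn1 (log2 change 0.50, adjusted p = 0.0426) and Xrn2 (0.46, adjusted p = 0.0321), the first of which degrades the downstream fragment after SMG6 cleavage. Those that fell were Cnot1 (−0.70, adjusted p = 0.00193), the scaffold of the deadenylase complex, and Ddx6 (−0.51, adjusted p = 0.0413), a helicase of decapping. In wild-type cells Xrn1 (1.01, adjusted p = 0.00244) and Xrn2 (0.59, adjusted p = 0.0140) rose and none fell. An unadjusted edgeR p under 0.05 was found for 11 of the 17 in the knockout and 5 in wild type, against 24.5% and 19.0% of all genes. DESeq2 called 5 in the knockout, Dcp1a (−0.45, adjusted p = 0.0299) among them, and 3 in wild type. It called 12.7% and 9.52% of the genes to which it gave an adjusted p. Xrn1 had 52.8 and 51.2 CPM in treated knockout cells, against 41.1 and 32.4 CPM in untreated knockout cells, and 73.4 and 67.5 CPM in treated wild-type cells, against 33.0 and 36.7 CPM in untreated wild-type cells. Both also rose in translational efficiency, Xrn1 by 0.90 and Xrn2 by 0.59 on the log2 scale (adjusted p = 0.0225 and 0.0419).

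The 5 termination factors share the terminating ribosome with UPF1. In the knockout 1 rose, Pabpc1 (log2 change 0.57, adjusted p = 0.0227), the cytoplasmic poly(A)-binding protein that competes with UPF1 for eRF3. In wild-type cells both genes of eRF3 rose, Gspt1 by 0.80 (adjusted p = 0.00797) and Gspt2 by 1.12 (adjusted p = 0.00557). Gspt1 had 217 and 193 CPM in treated knockout cells, against 184 and 150 CPM in untreated knockout cells, a log2 change of 0.29 that missed the threshold (adjusted p = 0.230), and its difference between genotypes missed it too (−0.51, adjusted p = 0.420). Both eRF3 genes also rose in translational efficiency, by 0.79 and 1.21 (adjusted p = 0.0448 and 0.0216).

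SMG1 belongs to the PIKK family of kinases, whose members are matured by the TTT and R2TP chaperone complexes. Of the 5 other PIKK genes, 1 rose in the knockout, Atr (log2 change 0.53, adjusted p = 0.0218), and 1 in wild type, Prkdc (0.74, adjusted p = 0.0138), both encoding kinases of the DNA damage response. Of the 7 chaperone genes, 2 fell in the knockout, Telo2 (−0.63, adjusted p = 0.0461) and Ruvbl1 (−0.49, adjusted p = 0.0122), and 0 were called in wild type. An unadjusted edgeR p under 0.05 was found for 4 of the 7 in the knockout and 2 in wild type, against 24.5% and 19.0% of all genes. DESeq2 called 3 in the knockout, these 2 and Rpap3 (−0.49, adjusted p = 0.0357), and 0 in wild type. Smg1 itself, as given above, was called in neither.

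Of 18 genes with transcripts known as sensitive to the pathway, 13 were tested in footprints. Counts are per gene symbol, so sensitive forms of an mRNA were not told apart from other forms of the same gene. The values therefore do not show whether the sensitive forms changed. In the knockout 1 fell, the uridine phosphorylase gene Upp1 (log2 change −0.70, adjusted p = 0.0197). In wild-type cells 2 rose, the stress-response transcription factor genes Atf4 (2.02, adjusted p = 0.000121) and Ddit3 (2.38, adjusted p = 0.0177). DESeq2 called 1 of this list in wild type, Atf4. Atf4 also rose in translational efficiency (1.87, edgeR adjusted p = 0.00602). Footprints of Ddit3 were few, at 5.90 ± 3.49 CPM in treated and 1.05 ± 0.775 CPM in untreated wild-type cells (SD, n = 2 each). Atf4 was the 1 gene of these lists whose response differed between genotypes in edgeR (−1.71, adjusted p = 0.0165). DESeq2 called Atf4 and also Ddx6 (−0.98, adjusted p = 0.00223) and Cnot1 (−0.59, adjusted p = 0.0289) for this difference, both of which missed the threshold in edgeR (adjusted p = 0.125 and 0.248). Atf4 and Ddit3 are also induced by eIF2 phosphorylation. In wild-type poly(A) RNA 18 were tested and 0 were called by edgeR or DESeq2. An unadjusted edgeR p under 0.05 was found for 4 of the 18, against 5.13% of all genes. The median log2 change was 0.07, against 0.00 over all genes.

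Leaving out a single library ended many of these calls. In the knockout, the call was lost without untreated replicate B, treated A or treated B for Atr (log2 change 0.40 to 0.50) and Xrn2 (0.32 to 0.45), and without those or treated wild-type B for Xrn1 (0.34 to 0.49). It was lost without untreated replicate A, treated A or treated B for Ddx6 (−0.58 to −0.30) and Ruvbl1 (−0.58 to −0.47), without any knockout library for Pabpc1 (0.45 to 0.69), Telo2 (−0.75 to −0.51) and Upp1 (−0.78 to −0.62), and without treated A for Cnot1 (−0.71). In wild type, it was lost without untreated replicate A for Gspt1 (0.63), without untreated A or treated A for Xrn2 (0.53 to 0.58) and Prkdc (0.60 to 0.67), without untreated A or treated B for Gnl2 (0.59 to 0.63), and without treated A for Pnrc2 (0.93) and Ddit3 (1.67). Nbas lost it without untreated A or without any treated library of either genotype (0.48 to 0.72), and the genotype difference of Atf4 lost it without any knockout library (−1.83 to −1.67). The calls in translational efficiency were lost without any 1 of the 4 RNA libraries, and for Xrn2 and Gspt1 also without treated footprint replicate A. The log2 changes there were 0.79 to 1.00 for Xrn1, 0.57 to 0.60 for Xrn2, 0.74 to 0.83 for Gspt1 and 1.15 to 1.28 for Gspt2. They were 0.64 to 0.69 for Gnl2 and 1.79 to 1.94 for Atf4. Without an RNA library, every gene called in the main joint fit lost its call, so this loss was not particular to these genes. Fitted alone, the 4 wild-type footprint libraries gave a call for Atf4 but for none of the other wild-type genes of these lists.

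**Figure D4:**
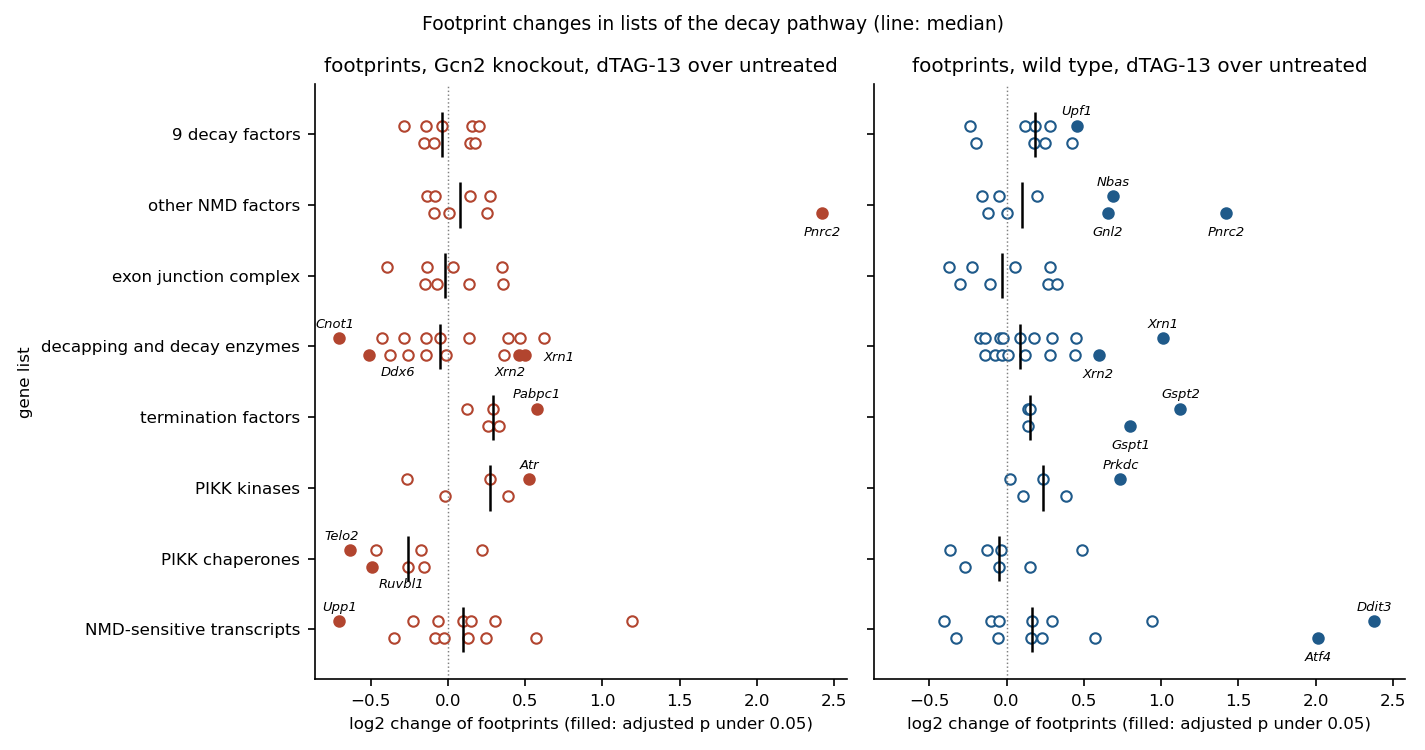
Log2 change of footprints after dTAG-13 over untreated for the 9 decay factors and 7 lists of the pathway, in knockout (left) and wild-type cells (right); each circle is a gene, filled where its adjusted p was under 0.05, and lines are list medians. Of the 9 factors Upf1 alone is filled, in wild-type cells, while Pnrc2 is filled above 0 in both genotypes.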

How the data were processed

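Reads of 8 footprint and 4 poly(A) RNA libraries were trimmed with cutadapt and aligned with HISAT2 2.1.0 to mm10, after base calling with CASAVA 1.4, per the submitters' processing notes. The deposited values are raw counts per gene symbol. The counting tool, its annotation, use of strand and treatment of multi-mapping reads are not stated in the labels or notes. Knockout treated replicate B was matched to its column by title, since its description repeats the column of replicate A. Gene positions come from RefSeq's annotation of the same build.

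From the counts, edgeR 4.0.16 in R 4.3.3 was run with filterByExpr at a minimum count of 10, TMM factors, robust glmQLFit and glmQLFTest. Groups of the 8 footprint libraries were fitted together, the 4 RNA libraries alone, and wild-type footprints with RNA in 1 interaction model for genes joined by symbol (20050) or synonym (82). Adjusted p-values cover all genes tested in a fit. They rest on a spread between replicates that is estimated over all groups of the fit, 2 biological replicates each. For each gene this spread is drawn towards that of other genes. In footprints it thus joins both genotypes, although the groups were not alike in spread. The chi-square of counts between replicates, per degree of freedom, was 16.5 in untreated and 2.76 in treated knockout cells. It was 23.7 in untreated and 13.8 in treated wild-type cells. This measure also grows with depth. The joined SE can therefore be too small for wild-type cells and too large for the knockout. SE and intervals were derived from the F statistic. DESeq2 1.42.0, RLE factors, no filter, replicate blocks, other sample sets and leaving out each library were alternatives. All 9 factors, Etf1, Gspt1, up to 4 called genes per list and contrast, and the 3 genes most like a called factor are named. The 9 factors and the lists were chosen with earlier results of these data known. A further gene first placed in the lists was taken out of them and is not reported here. Levels per coding length are not used here.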

Additional observations from a re-analysis of the deposited data

Results flagged for a closer look

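For Upf1 and Upf3a, both decay factors, the treated libraries lay beyond the untreated ones in both genotypes, in opposite directions. The share of all genes with ranges apart in opposite directions is not given here. The log2 change of Upf1 was −0.14 in the knockout, which missed the threshold (edgeR adjusted p = 0.492), and 0.45 in wild type, which passed it (adjusted p = 0.0388). As given above, this call did not hold with the wild-type libraries fitted alone (edgeR adjusted p = 0.177). The knockout's change minus that of wild type was −0.59, which did not pass in edgeR (adjusted p = 0.244) and passed in DESeq2 (adjusted p = 0.0379). The log2 change of Upf3a was 0.18 in the knockout (adjusted p = 0.404) and −0.24 in wild type (adjusted p = 0.313), neither passing, and the difference of 0.41 did not pass (adjusted p = 0.435).

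Among the pathway lists, the response of Atf4 differed between genotypes by −1.71 on the log2 scale in a test that passed (edgeR adjusted p = 0.0165), with log2 changes of 0.30 in the knockout and 2.02 in wild type. The helicase gene Ddx6 had treated libraries below the untreated ones in the knockout and above them in wild type. It fell in the knockout (log2 change −0.51, edgeR adjusted p = 0.0413), while its value of 0.45 in wild type did not pass in edgeR (adjusted p = 0.0965) and passed in DESeq2 (adjusted p = 0.0481). The difference between genotypes of −0.96 did not pass in edgeR (adjusted p = 0.125) and passed in DESeq2 (adjusted p = 0.00223).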

How the results depend on the processing

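Of 658 log2 changes of the 9 factors recomputed under alternatives, 608 kept their direction and their side of the threshold, 8 lost a call, all of Upf1 in wild-type footprints, and 9 gained one. A further 33 changed sign, all of them changes that had not been called, and the cause was not tested. Of these, Smg9's genotype difference was −0.0049 under RLE, −0.0068 without the filter and −0.0046 in DESeq2, and without the filter Smg8 was at −0.00051 between untreated genotypes and Upf3a at −0.0022 in RNA. The others changed sign in fits without a single library, which gave −0.56 to 0.11 for Smg5 in wild-type footprints, and in knockout footprints −0.28 to 0.24 for Upf2 and −0.31 to 0.028 for Upf3b. Etf1 and Gspt1, which are not among the 9 factors or in these counts, also changed sign in such fits and are listed with them. The genotype difference was −0.43 to 0.28 for Smg5, −0.12 to 0.13 for Smg9 and −0.026 to 0.26 for Etf1. Between untreated genotypes such fits gave −0.096 to 0.42 for Upf2, −0.22 to 0.12 for Upf3b, −0.037 to 0.042 for Smg8 and −0.20 to 0.081 for Etf1. In RNA they gave −0.054 to 0.086 for Upf1, −0.068 to 0.077 for Upf3a, −0.12 to 0.043 for Upf3b, −0.059 to 0.19 for Smg1, −0.038 to 0.026 for Smg6, −0.020 to 0.010 for Etf1 and −0.033 to 0.049 for Gspt1. In translational efficiency they gave −0.077 to 0.18 for Smg1, −0.66 to 0.0078 for Smg5, −0.93 to 0.11 for Smg8 and −0.0096 to 0.23 for Smg9. Scaling by RLE moved medians over all genes by at most 0.025.

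Fits without a single library called 0 to 1 of the factors in wild-type footprints, RNA and translational efficiency by edgeR, with 0 to 4 at an unadjusted p under 0.05. Over all genes such fits called 215 to 1353 in knockout footprints, 197 to 659 in wild-type footprints, 0 to 32 for the genotype difference (658 to 1602 at an unadjusted p under 0.05), 1 to 10 between untreated genotypes, 14 to 267 in RNA and 0 to 671 in translational efficiency (1191 to 2654 at an unadjusted p under 0.05).

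Without the filter the counts of genes called were 1658 (knockout), 1048 (wild type), 192 (genotype difference), 113 (untreated genotypes) and 459 (translational efficiency). DESeq2 called 116 genes and 1 factor (Upf1) for the genotype difference, 31 genes between untreated genotypes, 8 in RNA and 435 in translational efficiency. Fitted alone, the wild-type libraries called 19 genes and 0 factors in edgeR (2 factors at an unadjusted p under 0.05), and the knockout libraries 1893 genes.

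The replicate letters were not taken as pairs, since the labels do not say what libraries of the same letter share. Deviations from the group means were correlated between treated and untreated libraries of the same letter. The r was 0.490 in wild-type footprints, so a shared part of replicates there is left in the spread of the main fit. It was 0.101 in knockout footprints and 0.015 in RNA. With the letter as a replicate block, 931 genes were called in wild-type footprints, 39 for the genotype difference, 14 between untreated genotypes, 16 in RNA and 1561 in translational efficiency, where 3 factors passed (Upf1, Upf2 and Smg6). With the replicate block within genotype, 3149 genes and 1 factor (Smg5) were called in the knockout, 2109 genes and 2 factors (Upf1 and Smg6) in wild type, and 733 genes and 1 factor (Upf1) for the genotype difference.

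With 2 libraries a group, the SE of the factors' treatment changes in footprints was 0.108 to 0.188 on the log2 scale, which limits the size of change that could be called.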
